A study of Mus musculus with 8 samples.

Results

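The butyrophilin-like genes Btnl1, Btnl2, Btnl4, Btnl6 and Btnl9 were followed in RNA sequencing of mouse small intestinal adenomas and wild-type small intestine. They were found by symbol in a table of raw counts for 39179 genes. All 5 were in the table, and all 5 passed the filter on low counts that left 18345 genes for testing. The 5 adenoma libraries came from small intestinal adenomas of mice labelled VilCreER+ APCfl/+. VilCreER is a tamoxifen-activated Cre recombinase under the villin promoter, which is active in intestinal epithelium, so recombination of the single floxed Apc allele is aimed at epithelial cells. The 3 wild-type libraries came from small intestinal tissue of VilCreER+ mice, which carry the same recombinase and were also put through tamoxifen-induced recombination. The strain label of all 8 libraries is Inbred C57BL6/J. The study's design text calls the adenoma-bearing mice aged and the wild-type tissue whole intestine, while the tissue label of wild type is small intestine. No age is given, and nothing in the labels ties libraries to separate mice, so the spread behind each p-value is that between libraries and may be technical. The comparison asks how expression in adenomas that arose in mice with 1 floxed Apc allele differs from that of intestine without such an allele.

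Butyrophilins and butyrophilin-like proteins are cell-surface molecules with immunoglobulin-like domains, related to the B7 ligands of T cells. In the mouse small intestine, Btnl1 is made by villus enterocytes and forms complexes with Btnl6 or Btnl4 at their surface. Btnl1 is needed for the expansion and maturation of intraepithelial T cells whose gamma-delta receptor uses the Vgamma7 chain, which the Btnl1 and Btnl6 complex engages. Btnl2 is best known for inhibiting T cell activation in culture. The role of Btnl9 is less well defined. HNF4 and CDX transcription factors drive genes of mature intestinal epithelium.

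Total counts were 18040301 to 28343915 per library. Values below are CPM, that is counts scaled to TMM-adjusted library size, and log2 fold changes are adenoma over wild type ± SE from edgeR's quasi-likelihood test with Benjamini-Hochberg adjustment over the 18345 genes. Apc, the floxed gene, averaged 146 ± 11.4 CPM in adenoma and 199 ± 10.8 CPM in wild type (SD, n = 5 and n = 3), a log2 fold change of -0.45 ± 0.09 with an adjusted p of 0.00374 in edgeR and of 0.0987 with sex pattern as a covariate. That row counts the whole gene and not the floxed exon alone. At an adjusted p of 0.05 the edgeR fit called 5558 genes higher and 5099 lower in adenoma, with a median log2 fold change of 0.04 over all genes tested. When libraries were scaled so that pan-epithelial genes summed to the same count, the fit gave 1174 higher and 9638 lower and moved that median to -0.69. Adenoma 2 stood apart from the other adenomas. It had 245.5 CPM of Hoxb13, a gene of the posterior body axis, and 0.470 CPM of Gata4, a factor of the proximal small intestine, which was at 68.4 to 84.4 CPM in the other 4 adenomas. Adenomas 2 to 5 had high Xist and next to no Ddx3y, whereas adenoma 1 and all 3 wild-type libraries had the reverse, so sex and group are largely confounded. Pnlip, a pancreatic lipase gene, was at 63.5 CPM in adenoma 5 and 190.0 CPM in wild type 1, and below 1 CPM elsewhere. Results are therefore given with all libraries and without adenoma 2, and the fits with sex pattern as a covariate or without adenoma 5 and wild type 1 are named where they end the call of a gene named here.

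Of the 5 genes, 4 lie in a cluster on chromosome 17 and Btnl9 lies on chromosome 11. On build GRCm38, Btnl2 (ENSMUSG00000024340) spans chr17:34354822-34369495 and Btnl1 (ENSMUSG00000062638) spans chr17:34377132-34386028, both on the plus strand. Btnl4 (ENSMUSG00000058435) spans chr17:34466562-34477318 and Btnl6 (ENSMUSG00000092618) spans chr17:34507804-34517352, both on the minus strand. The pseudogenes Btnl5-ps and Btnl7-ps lie in the same cluster on the minus strand, at chr17:34488070-34497429 and chr17:34532877-34547651. Btnl9 (ENSMUSG00000040283) spans chr11:49165585-49187159 on the minus strand. All 5 are annotated as protein-coding.

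Because the 4 genes of the cluster were low in the same libraries, 250 bases are shown for each, 5′ to 3′ on the strand of the gene. They are the bases before an annotated transcription start site, which need not be the only one of the gene. The sequences are from RefSeq on GRCm38.p6, at chr17:34376882-34377131 for Btnl1, chr17:34354572-34354821 for Btnl2, chr17:34475938-34476187 for Btnl4 and chr17:34517353-34517602 for Btnl6. Each window ends at the start of an annotated transcript of its gene, which holds for 1 of 2 transcripts of Btnl1 and of Btnl4. For Btnl2 and Btnl6 it holds for both. The Btnl4 window lies inside the annotated span of the gene, which reaches upstream to 34477318. It therefore does not show the sequence before the outermost annotated start of Btnl4. Capitals mark matches to CAAAG, the core shared by sites of HNF4 and of the Wnt effectors TCF/LEF, and to the longer HNF4 form CAAAGTCCA, which contains it.
Btnl1: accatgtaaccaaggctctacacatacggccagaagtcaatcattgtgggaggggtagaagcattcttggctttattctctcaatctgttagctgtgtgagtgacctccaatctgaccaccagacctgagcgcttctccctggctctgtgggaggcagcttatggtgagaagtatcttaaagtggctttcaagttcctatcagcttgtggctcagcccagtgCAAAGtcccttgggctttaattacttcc
Btnl2: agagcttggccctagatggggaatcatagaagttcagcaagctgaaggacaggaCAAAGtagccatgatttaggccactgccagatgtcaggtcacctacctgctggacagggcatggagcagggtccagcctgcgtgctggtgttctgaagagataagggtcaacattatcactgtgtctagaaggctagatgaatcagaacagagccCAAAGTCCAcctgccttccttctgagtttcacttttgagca
Btnl4: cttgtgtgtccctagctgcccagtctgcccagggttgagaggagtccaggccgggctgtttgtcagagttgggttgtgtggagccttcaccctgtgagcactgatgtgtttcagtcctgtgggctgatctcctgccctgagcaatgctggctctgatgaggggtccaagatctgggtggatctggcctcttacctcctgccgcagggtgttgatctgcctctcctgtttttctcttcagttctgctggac
Btnl6: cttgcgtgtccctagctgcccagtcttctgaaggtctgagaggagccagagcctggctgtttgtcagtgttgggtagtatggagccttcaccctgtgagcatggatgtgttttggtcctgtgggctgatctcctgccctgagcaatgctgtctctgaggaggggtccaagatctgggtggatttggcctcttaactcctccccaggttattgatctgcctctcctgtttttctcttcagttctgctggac
The windows of Btnl4 and Btnl6 were nearly the same sequence, with 228 identical bases over 252 alignment columns, or 90.5%. The other pairs among these 4 windows aligned at 51.6% to 52.9% identity. On either strand, CAAAG matched once in the Btnl1 window, beginning 28 bases before the start site, and at 2 places in the Btnl2 window, 196 and 41 bases before it. The match at 41 bases in Btnl2 was also the single match to CAAAGTCCA in these windows. No window of the 4 held ATCAAAG, a TCF/LEF form that also contains CAAAG, or TTTATNG, a CDX form, and the windows of Btnl4 and Btnl6 held none of the 4 motifs. Among 32817 RefSeq windows of the same length, 48.6% held CAAAG, 0.384% held CAAAGTCCA, 3.21% held ATCAAAG and 9.81% held TTTATNG. A match is a stretch of letters and not a shown binding site.

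Btnl1, the partner common to both complexes, was lower in every adenoma than in any wild-type library. It had 90.6, 3.24, 129.5, 100.4 and 99.8 CPM in adenomas 1 to 5, against 378.6, 284.2 and 306.2 CPM in wild type 1 to 3. Adenoma 2 held 69 Btnl1 counts and stood far below the other 4, which kept within 90.6 to 129.5 CPM. The means were 84.7 ± 47.8 CPM in adenoma and 323 ± 49.4 CPM in wild type, which puts the adenomas at 26.2% of wild type. The log2 fold change was -1.93 ± 0.81, and it missed the threshold in edgeR with an adjusted p of 0.0726. Without adenoma 2 the adenomas averaged 105.1 ± 16.9 CPM and the log2 fold change was -1.63, with an adjusted p of 1.46e-05 in edgeR.

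Btnl6, the partner of Btnl1 in the complex seen by Vgamma7 receptors, fell. It had 9.60, 1.64, 10.8, 10.1 and 8.77 CPM in adenomas 1 to 5, against 46.9, 39.7 and 39.6 CPM in wild type 1 to 3. The groups did not overlap, and adenoma 2 was again the lowest library. The log2 fold change was -2.36 ± 0.47, with an adjusted p of 0.00356 in edgeR. Without adenoma 2 it was -2.11 with an adjusted p of 9.43e-07 in edgeR. With sex pattern as a covariate, a fit in which wild type is set against adenoma 1, the call ended in edgeR, with an adjusted p of 0.118 at a log2 fold change of -2.13.

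Btnl4, the other partner of Btnl1, also fell. It had 32.2, 12.2, 33.5, 31.4 and 30.8 CPM in adenomas 1 to 5, against 106.6, 92.4 and 99.4 CPM in wild type 1 to 3. The groups did not overlap, and the 4 adenomas other than adenoma 2 differed by less than 3 CPM. The log2 fold change was -1.83 ± 0.28 with an adjusted p of 0.000887 in edgeR, and -1.65 with an adjusted p of 7.36e-07 without adenoma 2. With sex pattern as a covariate it was -1.63, with an adjusted p of 0.0539 in edgeR. Adenoma 1, which has the sex pattern of the wild-type libraries, was below all 3 of them for Btnl1, Btnl2, Btnl4 and Btnl6.

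Btnl2, the T cell inhibitor at the Btnl1 end of the cluster, followed Btnl1 closely. It had 39.6, 0.845, 46.2, 37.7 and 35.1 CPM in adenomas 1 to 5, against 139.2, 118.9 and 125.0 CPM in wild type 1 to 3. Every adenoma was below every wild-type library, and adenoma 2, with 18 counts, was far below the rest. The log2 fold change of -2.0 ± 0.81 missed the threshold in edgeR at an adjusted p of 0.0657. Without adenoma 2 it was -1.70 with an adjusted p of 2.25e-06 in edgeR.

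Btnl9 was near the limit of detection in both groups. It had 11, 13, 9, 7 and 39 counts in adenomas 1 to 5, against 15, 9 and 13 counts in wild type 1 to 3. In CPM that was 0.513, 0.610, 0.402, 0.303 and 1.32 in the adenomas and 0.764, 0.502 and 0.709 in wild type. The groups overlapped, and adenoma 5 was the highest library. The log2 fold change was -0.04 ± 0.49 with an adjusted p of 0.949 in edgeR, and without adenoma 5 it was -0.53 with an adjusted p of 0.220. A difference in Btnl9 was not detected, and its level gives no ground for placing it among genes of villus epithelium.

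**Figure D1:**
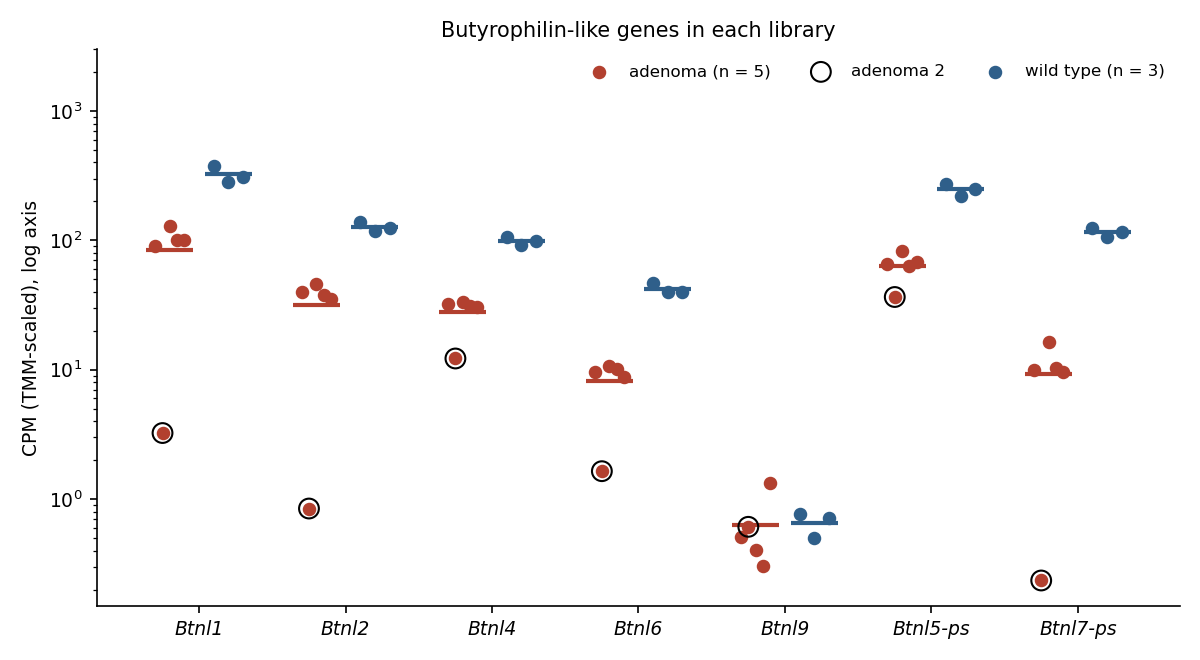
CPM of each gene in each library on a log axis, adenoma on the left of each pair and wild type on the right, with a line at each group mean and a ring around adenoma 2. For Btnl1, Btnl2, Btnl4, Btnl6 and both pseudogenes all 5 adenomas lie below the 3 wild-type libraries, and the ringed library is lowest, whereas the 2 groups overlap for Btnl9.

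The edgeR fit thus called 2 of the 5 genes lower, Btnl4 and Btnl6, where it called 27.8% of all genes tested lower and 30.3% higher. Without adenoma 2 it called 4 of the 5 lower, where 33.5% of all genes tested in that fit were lower and 34.0% higher. With sex pattern as a covariate both calls ended, and that fit called 12.5% of all genes lower and 16.8% higher. Without adenoma 5 and wild type 1, Btnl4 and Btnl6 were called lower, as were 20.4% of all genes, while 22.3% were called higher. Scaled to equal pan-epithelial counts 4 of the 5 were called lower, where 52.5% of all genes were lower and 6.4% higher. Every adenoma was below every wild-type library for 4 of the 5 genes, as for 27.6% of all genes tested. The median log2 fold change of the 5 was -1.93, against 0.04 over all genes. In whole tissue, fewer cells of a type and less RNA per cell cannot be told apart.

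**Figure D2:**
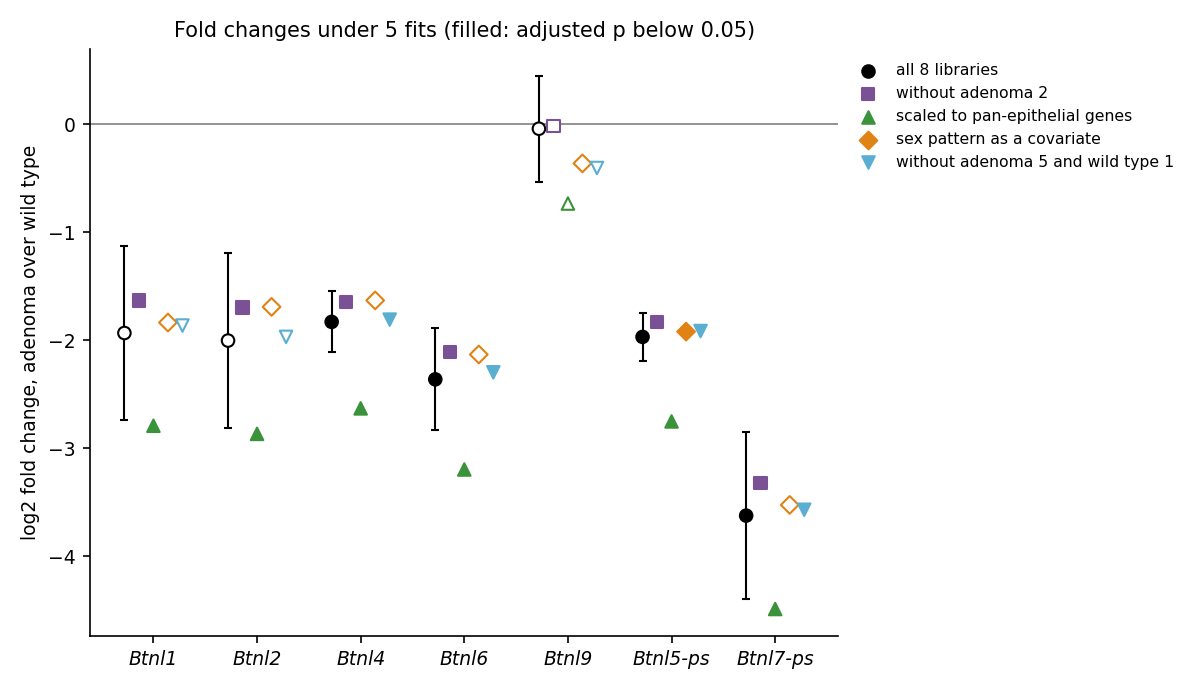
Log2 fold change of adenoma over wild type for each gene under 5 edgeR fits, with the SE drawn for the fit of all 8 libraries and filled symbols for an adjusted p below 0.05. Btnl1 and Btnl2 are open with all libraries and filled without adenoma 2, Btnl4 and Btnl6 are open only under the sex covariate among these 5 fits, and Btnl9 is open throughout.

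The pseudogenes of the cluster were low too. Btnl5-ps, a transcribed pseudogene, averaged 63.5 ± 16.9 CPM in adenoma and 248 ± 26.2 CPM in wild type, and fell by 1.97 ± 0.22 on the log2 scale with an adjusted p of 0.00016 in edgeR. Btnl7-ps had 215, 5, 369, 240 and 284 counts in adenomas 1 to 5, against 2448, 1904 and 2107 counts in wild type 1 to 3. It fell by 3.62 ± 0.78 with an adjusted p of 0.00523 in edgeR, and fell by 3.32 without adenoma 2, but with sex pattern as a covariate its call ended at an adjusted p of 0.141. Rows of the cluster may not be fully separate measurements, since some of their transcripts share stretches as long as a read, and how such reads were counted is not known. Of the distinct 36-base words in annotated Btnl4 transcripts, 77.2% occur in no other gene's transcripts, and 13.5% also occur in Btnl5-ps. For Btnl6 86.7% are unique, and 6.12% occur in Btnl4. For Btnl1 and Btnl2 100% are unique, and for Btnl9 99.3%.

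Per kilobase of exon, the order of mean levels was Btnl1, Btnl2, Btnl4, Btnl6 and Btnl9 in both groups. Btnl1 stood at 26.3 ± 14.8 CPM per kb in adenoma and 100.1 ± 15.3 CPM per kb in wild type. Btnl2 stood at 12.3 ± 6.89 and Btnl4 at 11.8 ± 3.73 CPM per kb in adenoma, where these neighbours did not differ beyond their spread, against 49.4 ± 4.03 and 41.8 ± 2.98 CPM per kb in wild type. Btnl6 stood at 4.67 ± 2.13 CPM per kb in adenoma and 24.0 ± 2.40 CPM per kb in wild type. Btnl9 was near 0.1 CPM per kb in both groups, at 0.104 ± 0.067 in adenoma and 0.109 ± 0.023 in wild type. Btnl5-ps, at 29.8 ± 7.96 CPM per kb in adenoma and 116.7 ± 12.3 CPM per kb in wild type, had a higher mean than Btnl1 in both groups.

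Adenoma 2 divided the genes of the cluster. Relative to the mean of the other 4 adenomas it held 3.08% of Btnl1, 2.13% of Btnl2 and 2.02% of Btnl7-ps. It held 16.7% of Btnl6, 38.2% of Btnl4 and 51.9% of Btnl5-ps. It held 96.2% of Btnl9. The genes of the cluster were therefore uneven in the library with Hoxb13 and without Gata4, and its part in each fold change is shown by the values without it.

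Ratios of counts within a library do not depend on scaling. The Btnl1 to Btnl6 ratio was 9.42, 1.96, 12.0, 9.91 and 11.4 in adenomas 1 to 5, against 8.07, 7.16 and 7.74 in wild type 1 to 3. Only adenoma 2 was below wild type, and the other 4 adenomas were above it. The means of the log2 ratio differed by -0.01, with an exact permutation p of 1 (two-sided, adjusted over 4 ratios also 1). Without adenoma 2 they differed by 0.47, with an exact permutation p of 0.0286 and an adjusted p of 0.0571. That 0.0286 is the smallest p the splits of the remaining libraries allow.

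The Btnl4 to Btnl6 ratio was 3.34, 7.34, 3.11, 3.09 and 3.51 in adenomas 1 to 5, against 2.27, 2.33 and 2.51 in wild type 1 to 3. All 5 adenomas were above all 3 wild-type libraries. The mean log2 ratio was higher by 0.70 in adenoma, with an exact permutation p of 0.0357 and an adjusted p of 0.143, where the smallest p that 56 splits allow is 0.0179. Without adenoma 2 it was higher by 0.46, with an exact permutation p of 0.0286, the smallest allowed there, and an adjusted p of 0.0571. Shared sequence between the genes touches this ratio. The Btnl1 to Btnl4 ratio was 2.82, 0.267, 3.86, 3.20 and 3.24 in the adenomas, against 3.55, 3.08 and 3.08 in wild type. Apart from adenoma 2 the groups overlapped, and the means of the log2 ratio differed by -0.71 with an exact permutation p of 0.714 and an adjusted p of 0.952, against 0.01 without adenoma 2.

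**Figure D3:**
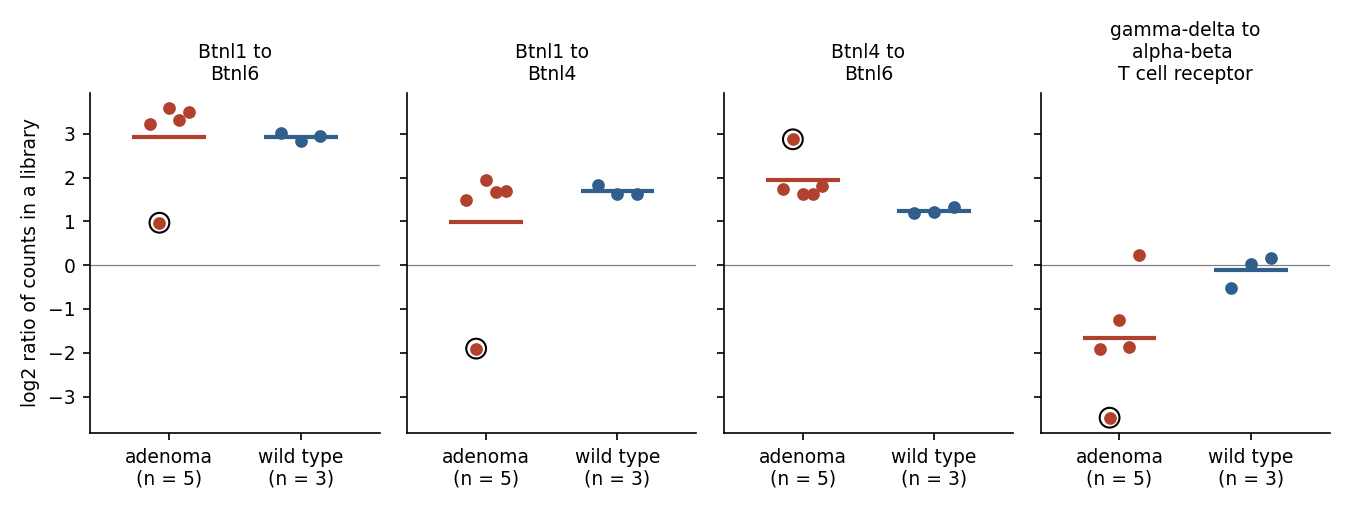
Log2 ratio of counts in each library for the 3 gene pairs and for gamma-delta over alpha-beta T cell receptor constant genes, adenoma left and wild type right, with a line at each mean and a ring around adenoma 2. The Btnl4 to Btnl6 ratio is higher in all 5 adenomas than in wild type, while the ringed library alone lies below wild type for the Btnl1 to Btnl6 ratio.

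The cluster sits beside class II MHC genes on one side and Notch4 on the other. The nearest gene before Btnl2 is H2-Eb2, a class II chain gene with low counts, at -1.99 ± 0.73 and an adjusted p of 0.0433 in edgeR, but its adjusted p was 0.0685 without adenoma 2 and its log2 fold change 0.01 without adenoma 5 and wild type 1. BC051142, between Btnl1 and Btnl4, averaged 0.618 CPM in adenoma and 2.62 CPM in wild type, and fell by 2.09 ± 0.37 with an adjusted p of 0.00166 in edgeR. H2-Eb1, a class II beta chain gene, fell by 0.96 ± 0.30 with an adjusted p of 0.0225, and H2-Aa had -0.82 with an adjusted p of 0.0758 in edgeR. Beyond Btnl7-ps, Notch4, a receptor gene of endothelium, averaged 24.8 CPM in adenoma and 10.8 CPM in wild type and rose by 1.20 ± 0.16 with an adjusted p of 0.000399 in edgeR. Further on, Gpsm3 and Ager did not pass the test, Pbx2 and Ppt2 rose, and Rnf5, Agpat1 and Egfl8 fell, all with log2 fold changes between -0.90 and 0.42. With sex pattern as a covariate the edgeR calls of H2-Eb1 (adjusted p of 0.391), H2-Eb2 (0.291), BC051142 (0.0895), Pbx2, Ppt2, Rnf5 and Agpat1 (0.163 to 0.384) ended, and Egfl8 stood at 0.05. Without adenoma 5 and wild type 1 the calls of H2-Eb1 (adjusted p of 0.111), Pbx2, Ppt2, Rnf5 and Agpat1 (0.0579 to 0.176) ended in edgeR. Scaled to equal pan-epithelial counts Notch4 was not called, at 0.49, and Pbx2 and Ppt2 turned to -0.46 and -0.30, which did not pass either.

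**Figure D4:**
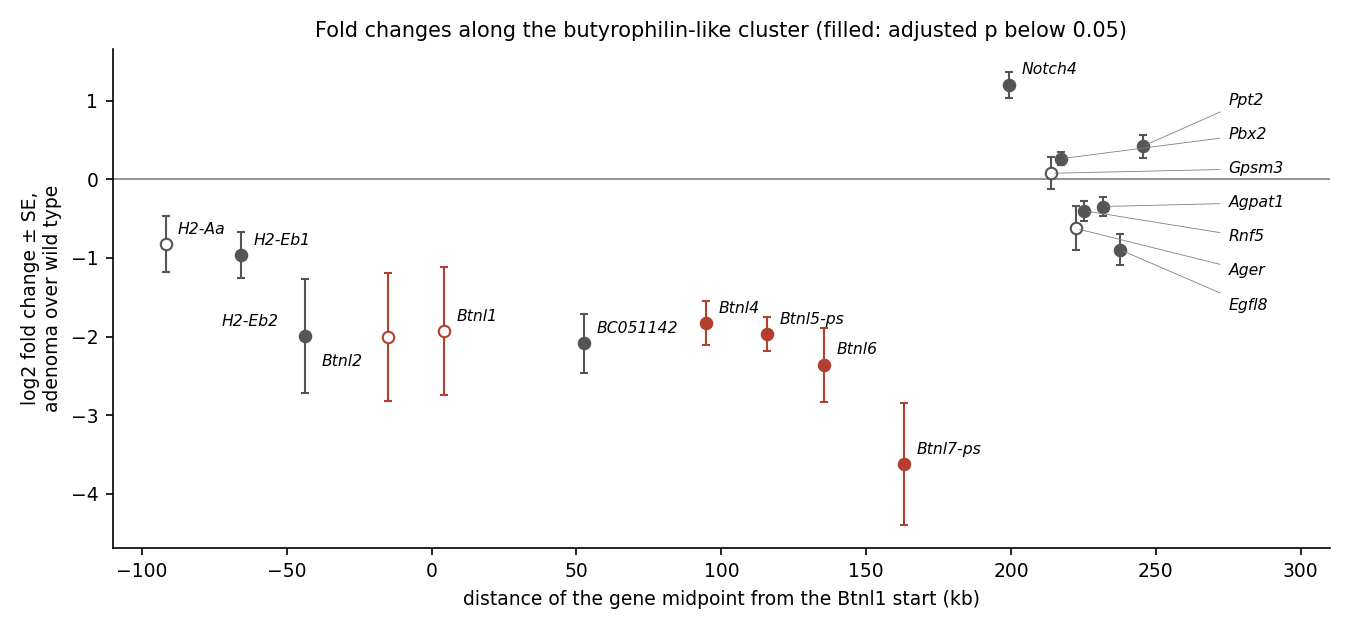
Log2 fold change ± SE of adenoma over wild type for the butyrophilin-like genes (red) and the protein-coding genes within 100 kb of the cluster (grey), against the distance of the gene midpoint from the start of Btnl1 in kb, with filled symbols for an adjusted p below 0.05. All 6 butyrophilin-like rows lie at -1.83 or below, and the first gene past Btnl7-ps, Notch4, is at 1.20.

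Genes of the T cells that these proteins act on were lower in adenoma. Tcrg-V7, the variable segment of the Vgamma7 chain, had 5, 0, 10, 0 and 8 counts in adenomas 1 to 5, against 22, 33 and 39 counts in wild type 1 to 3. The groups did not overlap, and the log2 fold change was -3.09 ± 0.73 with an adjusted p of 0.00634 in edgeR, or -2.81 without adenoma 2, and the call ended with sex pattern as a covariate at an adjusted p of 0.162. Of 14 gamma-delta receptor genes measured, 7 had enough counts for the test. All 7 fell, where 27.8% of all genes were called lower, with a median of -2.66 against 0.04 over all genes. Those 7 passed the filter on low counts mostly through wild type, so their count is a description, and with sex pattern as a covariate only Tcrg-C4, Tcrg-V1 and Tcrg-V4 of them were called. Their levels, summed over all 14, were 1.27 to 6.23 CPM in adenoma and 13.0 to 16.3 CPM in wild type. The constant genes Tcrg-C1, Tcrg-C2 and Tcrg-C4 fell, with log2 fold changes of -2.40, -2.66 and -2.49, and the segments Tcrg-V1, Trgv2 and Tcrg-V4, of chains other than Vgamma7, fell with -3.04, -2.19 and -2.78, at adjusted p-values of 0.00127 to 0.00487 in edgeR. Among those without a test, Trdv5 had 1, 1, 0, 0 and 0 counts in adenomas 1 to 5 and 7, 11 and 12 in wild type 1 to 3, while Tcrg-V6 and Trdv4 had higher means in adenoma. The delta constant gene was not analysed here.

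Lower values were also seen in T cell genes of other kinds. Among 8 alpha-beta receptor and CD4 T cell genes 5 fell with all libraries, where 27.8% of all genes were called lower. Their median log2 fold change in that fit was -0.96. Without adenoma 2, 7 fell, against 33.5% of all genes, and without adenoma 5 and wild type 1, 3 fell, against 20.4%. With sex pattern as a covariate 1 fell, a share near the 12.5% of all genes in that fit. Trbc1 and Trbc2, constant genes of the beta chain, fell by 1.69 and 1.18 with adjusted p-values of 0.00729 and 0.00417 in edgeR, and Trac had -0.84 with an adjusted p of 0.198. With sex pattern as a covariate Trbc1 and Trbc2 were not called in edgeR (adjusted p-values of 0.142 and 0.199), and without adenoma 5 and wild type 1 Trbc1 was not (0.0807). The ratio of summed gamma to alpha-beta constant gene counts was 0.264, 0.0894, 0.418, 0.274 and 1.17 in adenomas 1 to 5, against 0.698, 1.02 and 1.12 in wild type 1 to 3. Adenoma 5 was above all wild-type libraries and the other 4 adenomas were below them. The mean log2 ratio was lower by 1.55 in adenoma, with an exact permutation p of 0.125 and an adjusted p of 0.25, so a loss of one receptor type beyond the other was not shown.

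Of 23 genes of intraepithelial lymphocytes, 21 were tested, 16 fell and none rose, with a median log2 fold change of -1.84. The edgeR fit called 27.8% of all genes tested lower. With sex pattern as a covariate 11 of the 21 were called lower, against 12.5% of all genes. Some of the 21, such as Xcl1 and Fasl, passed the filter on low counts mostly through wild type, so these counts of calls are a description. Xcl1 had 7, 4, 4, 4 and 7 counts in adenomas 1 to 5 and 33, 28 and 25 in wild type 1 to 3. Cd160, a receptor of cytotoxic lymphocytes, averaged 1.11 ± 0.05 CPM in adenoma and 9.03 ± 0.98 CPM in wild type and fell by 3.02 ± 0.15 with an adjusted p of 7.03e-06 in edgeR. Itgae, the integrin chain that binds E-cadherin, fell by 1.49 and Gpr18, a receptor needed for normal numbers of these lymphocytes, fell by 2.43. Cdh1, which encodes E-cadherin, was at 499 ± 21.6 CPM in adenoma and 464 ± 44.5 CPM in wild type with an adjusted p of 0.439 in edgeR. Summed levels of the 23 were 92.7 to 149 CPM in adenoma and 304 to 333 CPM in wild type. Macrophage and dendritic cell genes had 1 of 10 called higher and 3 called lower, with a median of 0.08. B and plasma cell genes had 1 called each way of 6, where 30.3% of all genes were called higher and 27.8% lower. Whether lymphocyte number had a part in the butyrophilin-like values, or they in it, was not tested.

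Other epithelial signals to these lymphocytes divided. Of 8 genes 4 fell, with a median of -1.55, where the edgeR fit called 27.8% of all genes tested lower. Without adenoma 2 it called 5 lower, against 33.5% of all genes. It called 3 lower both with sex pattern as a covariate and without adenoma 5 and wild type 1, against 12.5% and 20.4%. Il15, which keeps intraepithelial lymphocytes alive, averaged 7.36 ± 1.28 CPM in adenoma and 38.9 ± 11.2 CPM in wild type and fell by 2.40 ± 0.21, with an adjusted p of 4.96e-05 in edgeR. Tnfrsf14, the receptor bound by Cd160, fell by 1.58, Il15ra, which presents Il15, fell by 1.53, and H2-T3, the source of the thymus leukaemia antigen bound by CD8 alpha chains, fell by 2.26 with an adjusted p of 0.0483. The call of H2-T3 ended in edgeR with sex pattern as a covariate (adjusted p of 0.346) and without adenoma 5 and wild type 1 (0.138), while Il15, Tnfrsf14 and Il15ra were called in both fits. The chemokine gene Ccl25 had 80.1, 1.69, 96.9, 76.5 and 62.2 CPM in adenomas 1 to 5, against 286.4, 223.0 and 235.4 CPM in wild type 1 to 3. Like Btnl1 it was not called with all libraries, at -1.97 with an adjusted p of 0.0802 in edgeR. Without adenoma 2 Ccl25 was called, at -1.66 with an adjusted p of 1.96e-05 in edgeR. Il7, Cxadr and Cdh1 did not pass the test.

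Of the HNF4 and CDX factors only Hnf4g fell in the edgeR fit of all libraries. It had 102.1, 10.4, 135.1, 92.7 and 86.3 CPM in adenomas 1 to 5, against 480.1, 364.8 and 431.0 CPM in wild type 1 to 3. The log2 fold change was -2.32 ± 0.62 with an adjusted p of 0.0138, and the groups did not overlap. Without adenoma 2 it was -2.04 with an adjusted p of 1.01e-05 in edgeR. Hnf4a was at 460 ± 88.6 CPM in adenoma and 577 ± 16.5 CPM in wild type, with an adjusted p of 0.126 in edgeR. Cdx1 and Cdx2 had log2 fold changes of -0.66 and -0.11 with adjusted p-values of 0.0796 and 0.789, and Cdx1 passed without adenoma 2 at -0.96. Without adenoma 5 and wild type 1, or with sex pattern as a covariate, none of the 4 factors was called, though Hnf4g had been called with all libraries. Scaled to equal pan-epithelial counts all 4 were called lower, where 52.5% of all genes were. On that scale Hnf4a, Hnf4g, Cdx1 and Cdx2 were at -1.10, -3.17, -1.30 and -0.94.

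Pan-epithelial genes went the other way. Of 12 pan-epithelial genes 9 rose and 1 fell, where the edgeR fit called 30.3% of all genes tested higher and 27.8% lower. Their median was 0.66, and their summed level was 5996 to 9727 CPM in adenoma and 4782 to 5150 CPM in wild type. Krt18, an epithelial keratin, rose by 2.54, and Spint1, a protease inhibitor, was the one that fell, by 0.35, though not with sex pattern as a covariate or without adenoma 5 and wild type 1 (adjusted p-values of 0.355 and 0.302 in edgeR). Those fits called 4 and 5 pan-epithelial genes higher, against 16.8% and 22.3% of all genes. Scaled to equal pan-epithelial counts, Btnl1, Btnl2, Btnl4 and Btnl6 were at -2.79, -2.87, -2.63 and -3.20 and all 4 passed the edgeR test, with adjusted p-values of 8.21e-05 to 0.0121 for Btnl6, Btnl1 and Btnl2 and 9.24e-06 for Btnl4. Genes with high counts weigh most in that sum. Krt8 averaged 2538 CPM in adenoma and 1454 CPM in wild type, Epcam 1530 and 1001, Krt19 1430 and 639, and Krt18 950 and 163. With all libraries Cdh1, at 0.105, and Cldn7, at -0.196, were not called. Whether the sum follows epithelial content or the level of these genes per cell was not tested. Genes of the upper villus were mixed. Of 12, the edgeR fit called Nt5e higher and Klf4 and Enpp3 lower, both below the shares of all genes. Their median was -0.79. Without adenoma 2 it called 2 higher and 6 lower, against 34.0% and 33.5% of all genes. The calls of Klf4 and Enpp3 ended without adenoma 5 and wild type 1 (adjusted p-values of 0.127 and 0.157 in edgeR), and those of all 3 ended with sex pattern as a covariate (0.0577 to 0.319). Their summed level was 509 CPM in adenoma 2, 6900 to 12250 CPM in the other adenomas and 11390 to 21050 CPM in wild type. Of 16 endothelial genes 9 rose and none fell, against 30.3% and 27.8% of all genes, with a median of 0.42. Scaled to equal pan-epithelial counts 4 rose and 5 fell, where 6.4% of all genes were higher and 52.5% lower. Their median in that fit was -0.33, against -0.69 over all genes. With sex pattern as a covariate 4 of them rose, against 16.8% of all genes. With all libraries, 4 of 10 fibroblast and smooth muscle genes rose and 2 fell, and 1 of 8 pancreatic acinar genes fell. Over all genes that fit called 30.3% higher and 27.8% lower.

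**Figure D5:**
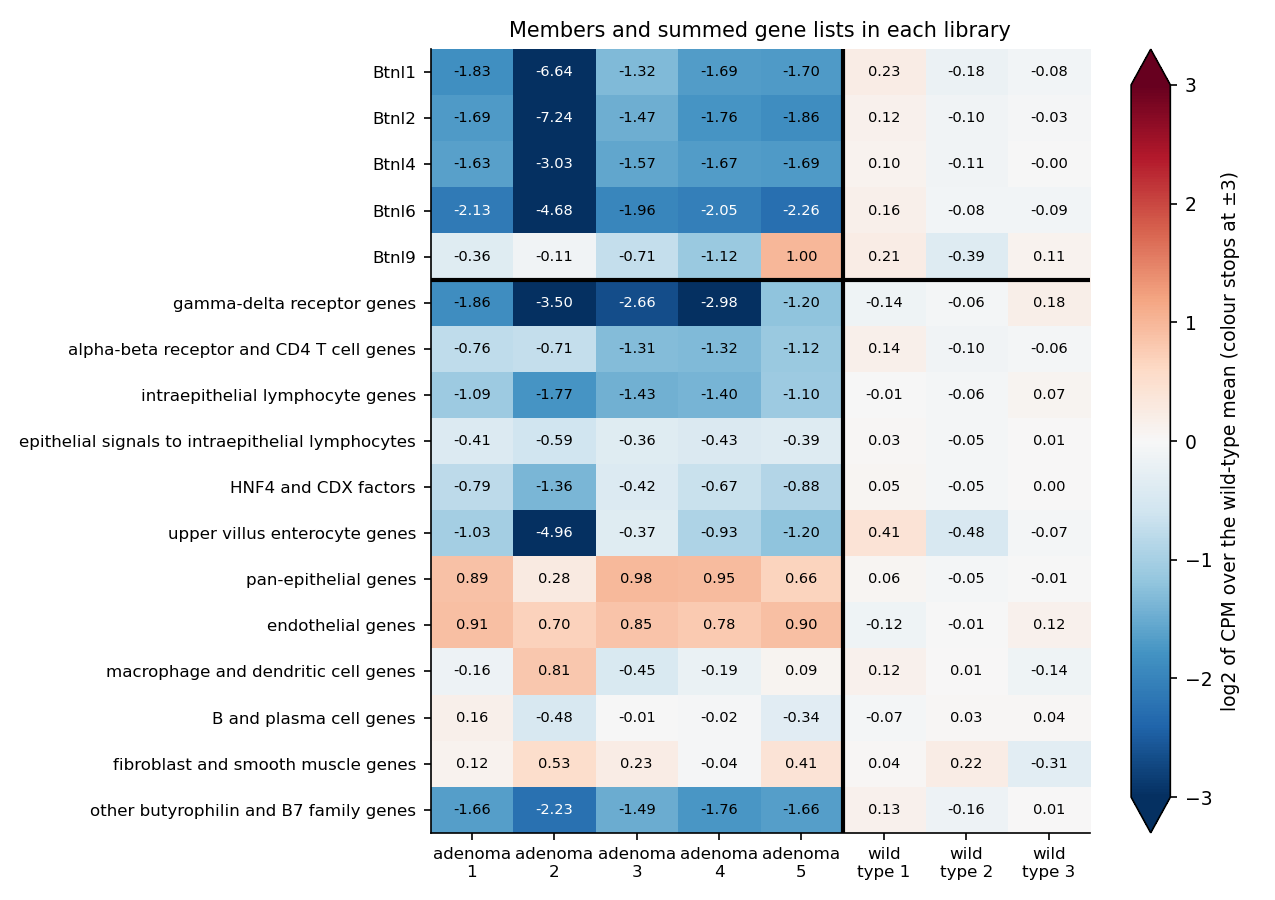
Log2 of the CPM of each butyrophilin-like gene (top) and of the summed CPM of each gene list (bottom) over the mean of the 3 wild-type libraries, with adenomas left of wild type. Adenoma 2 is at -6.64 for Btnl1, -7.24 for Btnl2 and -4.96 for upper villus genes, all adenomas are above 0 for pan-epithelial and endothelial genes, and all are below -1 for gamma-delta receptor genes. Other butyrophilin and B7 family genes sum to 372 to 453 CPM in wild type, where Btnl5-ps and Btnl7-ps average 248 and 115 CPM. That row therefore mostly follows these pseudogenes of the cluster and does not show the direction of the rest.

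The genes whose profiles over the 8 libraries were most like each member were found among tested genes at a mean of 5 CPM or more. Likeness was the root mean square difference of log2 CPM after each profile was centred on its own mean, so that a lower value is more alike, and it is a description that adenoma 2 weighs on heavily. For Btnl1 the closest were the fructose transporter gene Slc2a5 at 0.13, Btnl2 at 0.19 and Ccl25 at 0.21. For Btnl2 they were Ccl25 at 0.08, the bile acid exporter subunit gene Slc51a at 0.17 and Btnl1 at 0.19. For Btnl4 they were Ube2l6, Dhrs11 and Lpgat1 at 0.11 to 0.12, with Btnl5-ps in place 8 at 0.17. For Btnl6 they were Xkr9, Mfsd4b3 and Eci3 at 0.19 to 0.20, with Hnf4g in place 11 at 0.29. No gene came as close to Btnl9, for which C3, Ccl28 and Apobr were at 0.34 to 0.35.

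Other genes of the butyrophilin and B7 families did not share one direction. Of 25 measured, 11 were tested, 3 rose and 7 fell, both pseudogenes included, where 30.3% of all genes were called higher and 27.8% lower. With sex pattern as a covariate 2 were called each way, against 16.8% higher and 12.5% lower. Without adenoma 5 and wild type 1, 3 were called higher and 4 lower, against 22.3% and 20.4%. Ermap, a butyrophilin-related gene of red cells, had 3, 6, 4, 4 and 9 counts in adenomas 1 to 5 and 21, 21 and 26 in wild type 1 to 3. It fell by 2.45 with an adjusted p of 0.000263 in edgeR. Cd274, which encodes the T cell inhibitor PD-L1, averaged 5.65 ± 1.43 CPM in adenoma and 11.0 ± 1.97 CPM in wild type. Cd274 fell by 0.96 with an adjusted p of 0.00493 in edgeR, or 0.0598 with sex pattern as a covariate. The inhibitory B7 gene Vtcn1 rose, with 222, 120, 123, 146 and 302 counts in adenomas 1 to 5 against 1, 0 and 1 counts in wild type 1 to 3, and an adjusted p of 2.75e-05 in edgeR. Cd276, another B7 gene, averaged 16.6 ± 2.47 CPM in adenoma and 4.37 ± 1.85 CPM in wild type and rose by 1.93 with an adjusted p of 0.00057 in edgeR. Btn1a1, the butyrophilin of milk fat, rose by 1.5 on the log2 scale at low counts, with 0.465 ± 0.087 CPM in adenoma against 0.160 ± 0.048 CPM in wild type, with an adjusted p of 0.00777 in edgeR, or 0.0546 with sex pattern as a covariate and 0.189 when scaled to equal pan-epithelial counts. Ermap passed the filter on low counts mostly through wild type, and Vtcn1 and Btn1a1 mostly through adenoma, so their calls are a description. The Skint genes, of which Skint1 selects gamma-delta T cells that populate skin, were below 1 CPM on average in both groups. None of the 11 had enough counts for the test.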

How the data were processed

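RNA from 8 mouse samples was sequenced with an unstranded TruSeq RNA v2 kit as paired ends of 36 cycles, on 1 lane by the run names in the labels. The authors deposited raw counts. FastQC, TopHat2, HTSeq and build GRCm38 are named, per the submitters' processing notes, whereas versions, annotation and strand setting were not given in the sources used here, nor was any filter. How reads were counted that could belong to more than 1 of Btnl4, Btnl6 and the pseudogenes is not known, so these counts may be lowered or mixed. Symbols (37607 of 39179 identifiers) and positions came from GENCODE M21 on GRCm38. No pair of libraries within a group agreed within sampling noise.

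Counts were fitted with edgeR 4.0.16 in R 4.3.3 (filterByExpr, TMM, robust quasi-likelihood, Benjamini-Hochberg over 18345 genes, common biological coefficient of variation 0.282). The test was checked on simulated data. The SE is the log2 fold change divided by the square root of F, and log2 CPM uses a prior count of 2. Ratios use 0.5 added to each count and an exact permutation test, two-sided. Alternatives were other scalings and filters, a replicate block, a sex covariate, leaving out libraries, DESeq2 1.42.0 and limma-voom (limma 3.58.1).

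Members and the 13 gene lists were chosen with earlier results of these data known. Named were all members, pseudogenes, gamma-delta and alpha-beta constant and HNF4 and CDX genes, up to 3 genes of each other list by adjusted p plus the leading gene of the minority direction, the 3 most alike genes per member, and genes within 100 kb. Other genes, such as Trdv4, Il7, Ccl25 and Cdh1, were named after their values were seen, and part of those the rule takes is not printed.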

Additional observations from a re-analysis of the deposited data

Results flagged for a closer look

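Adenoma 2 stood far from the other 4 adenomas for most genes of the chromosome 17 cluster, though not for Btnl5-ps or for Btnl1 and Btnl7-ps in CPM, by a gap to its neighbour that exceeded Dixon's critical share of the group's range, 0.71 for 5 samples. Chance flags about 1 in 20 groups, and 18 were screened. In CPM the values were 0.845 for Btnl2, 12.2 for Btnl4 and 1.64 for Btnl6. In log2 CPM they were 1.74 for Btnl1, -0.09 for Btnl2, 3.62 for Btnl4, 0.80 for Btnl6 and -1.61 for Btnl7-ps. The within-library ratios of adenoma 2 stood apart as well, at 0.97 for the log2 Btnl1 to Btnl6 ratio, -1.91 for Btnl1 to Btnl4 and 2.88 for Btnl4 to Btnl6. Btnl9 in adenoma 5 did not meet this criterion.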

How the results depend on the processing

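Btnl1 and Btnl2 missed the threshold with all libraries, and the choices that turned them into calls were few. With DESeq2 their log2 fold changes were -1.97 and -2.04, with adjusted p-values of 0.0453 and 0.0493. With pan-epithelial scaling they were -2.79 and -2.87, both with an adjusted p of 0.0121 in edgeR, and with a filter of 5 CPM in 3 libraries Btnl2 was called at -2.12. Leaving out each library in turn gave -2.14 to -1.63 for Btnl1 and -2.18 to -1.70 for Btnl2, and only the fit without adenoma 2 called them. Btnl4 (-1.90 to -1.65) and Btnl6 (-2.48 to -2.11) were called in all 8 of those fits, and lost their call with the sex covariate, at -1.63 and -2.13. Btnl9 turned to 0.019 with no filter, and ran from -0.53 to 0.13 with a library left out, never called. The number of genes called ran from 8664 to 12276 with a library left out, and fell to 5372 with the sex covariate. The cause of these changes was not tested. With a library left out the log2 ratio differences ran from -0.18 to 0.47 for Btnl1 to Btnl6, where the value without adenoma 2 was 0.47 and that without wild type 1 was positive, and from -0.95 to 0.013, the value without adenoma 2, for Btnl1 to Btnl4.

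Samples that share a replicate number did not deviate together, with correlations of -0.02, 0.05 and 0.06 over the 3 shared numbers. With a replicate block 6549 genes were called, and the log2 fold changes were -2.93 for Btnl1, -2.90 for Btnl2, -2.06 for Btnl4, -2.81 for Btnl6 and -0.37 for Btnl9, with no member's call changed. Few counts limit Btnl9 and the T cell receptor genes, and 3 wild-type libraries limit the spread estimate of that group.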
